A study of Drosophila melanogaster with 16 samples.

Results

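The transcripts described here are those of apoptosis regulators and caspases, and the rule that picks them uses gene names and no measured value. They are th, Diap2, Nc, Ice, Dcp-1, W, rpr, Buffy, p53 and Bruce, and an exact match to the symbols that the authors paired with gene identifiers found 9 of the 10 among the 9977 genes of the count table. The symbol Diap2 was not matched and is not counted. The gene identifier of Diap2 (FBgn0015247) is listed there under the older symbol Iap2, and its values are given beside those of the 9 genes as Diap2. The decapping factor Dcp1 is a different gene from the caspase Dcp-1 and was not used.

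Apoptosis in the fly is set by a balance between caspases, the proteases that dismantle the cell, and the inhibitor of apoptosis proteins (IAPs) that keep them in check. The initiator caspase Nc (also called Dronc) is activated on a scaffold built by Dark and then cleaves the effector caspases Ice (Drice) and Dcp-1. The IAP th (thread, also called Diap1) binds caspases and holds them inactive until the antagonists rpr (reaper) and W (Wrinkled, also called hid) displace them, so that the level of th relative to its antagonists is a familiar determinant of cell survival. Depletion of th is a classical way to kill S2 cells. Levels of these transcripts, their spread between experiment days and their response to knockdown of Imp, an RNA-binding protein of cytoplasmic granules, were taken from the RNA-seq libraries of the Imp study.

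S2 cells, a line derived from fly embryos, were treated with 40 μg/ml of dsRNA corresponding to imp or to firefly luciferase, a gene that flies lack, with a daily boost, and were harvested on day 3. No other agent or allele differs between the groups. Each treatment had 3 RNA-seq libraries from poly(A) RNA, made as triplicates on different days. Libraries sharing a replicate number were treated as a pair from the same day, which the labels do not state. The study used more than 1 imp dsRNA fragment, and the sources used here do not tie them to libraries.

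The libraries held between 1081882 and 5463535 counts, with imp dsRNA replicate 2 the shallowest and imp dsRNA replicate 1 the deepest. Levels are given as CPM, counts scaled to a common library size, after TMM normalisation, which corrects for differences in composition. Imp, which the dsRNA targets, was lower in all 3 pairs. It had 233, 324 and 455 CPM in imp dsRNA replicates 1, 2 and 3 against 660, 738 and 814 in the controls. Its log2 fold change was -1.18 (SE 0.18), and the Benjamini-Hochberg adjusted p of the quasi-likelihood test in edgeR was 0.113. S2 cells resemble hemocytes, the blood cells of the fly, and all 8 hemocyte markers were in the count table, where their summed level ran from 4166 to 8964 CPM. Most of that sum came from Cg25C and vkg, with means of 4029 and 1876 CPM after imp dsRNA and 2597 and 1223 CPM after luciferase dsRNA. Hml ran from 2.92 to 9.03 CPM and He from 5.09 to 17.2 CPM. NimC1 had a count in only 2 of the 6 libraries, at 1 count each. Of 11 markers of neurons, glia, muscle, fat body and germline, 8 were in the count table. The neuronal marker elav had 44.0 to 66.7 CPM, and the other 7 together had 2.54 to 9.41 CPM.

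Among the genes chosen, th had the highest level per length. Since a longer transcript yields more reads, levels of different genes were compared only as CPM per kilobase of exon, with exon lengths from the BDGP6 annotation. In the luciferase dsRNA libraries th stood at 52.4, 63.7 and 64.0 CPM per kilobase in replicates 1, 2 and 3, above every other of these genes in every one of these libraries. Its mean of 60.0 ± 6.61 (SD, n = 3) lay at percentile 86.5 of the 9550 genes with a length. The th gene (FBgn0260635) lies on chromosome 3L from 16038410 to 16051034 in BDGP6, on the minus strand, a later build than the dm3 build of the counts, and no other gene shares exons with it on that strand.

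By mean level the caspases came next. Nc had 32.7 ± 7.61 CPM per kilobase (SD, n = 3), Ice 26.1 ± 0.576 (SD, n = 3) and Dcp-1 24.9 ± 8.98 (SD, n = 3), at percentiles 76.6, 72.6 and 71.6. The ranges of Nc and Ice overlapped, as did those of Ice and Dcp-1, so that these neighbours are not separated beyond their spread. Diap2, an IAP best known for its part in immune signalling through the Imd pathway, had 34.3 ± 9.39 (SD, n = 3), and its range overlapped that of Nc.

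Below the caspases by mean level came rpr at 16.6 ± 16.3 CPM per kilobase (SD, n = 3), Bruce at 16.3 ± 3.08 (SD, n = 3) and p53 at 12.9 ± 0.516 (SD, n = 3). Bruce encodes a giant protein with an IAP repeat and a ubiquitin-conjugating domain, and its 15702 bases of exon make it the largest of these transcripts, so that its 3573 counts, the most of all of these genes, give only a middling level per length. The range of rpr, from 4.44 to 35.1, covered those of Dcp-1, Bruce, Ice, Nc and p53 in part or in whole. Its place in the order depended on the replicate, and in luciferase dsRNA replicate 3 it lay above Nc, Ice and Dcp-1. The range of Dcp-1, 16.0 to 34.0, also overlapped that of Bruce, 13.6 to 19.7. With the coding length in place of the exon length rpr, whose coding sequence has 195 of 901 exon bases, moved to 76.7 CPM per kilobase, the second highest of the 9 genes after th.

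W and Buffy were close to the detection limit. W had 15, 3 and 1 counts in imp dsRNA replicates 1, 2 and 3 and 5, 6 and 3 counts in the luciferase dsRNA libraries, which is 0.472 ± 0.119 CPM per kilobase (SD, n = 3) after luciferase dsRNA. Buffy, one of the Bcl-2 family proteins of the fly, had 3 counts in imp dsRNA replicate 1, 2 counts in luciferase dsRNA replicate 2 and none in the other 4 libraries. A count of 0 in the shallowest library, imp dsRNA replicate 2, allows a level of up to 2.71 CPM by the limit of 3 counts, which covers counting error only. Both were below the filter on low counts and entered no main test. With no filter, the log2 fold change of W was 0.22 (SE 0.77, adjusted p = 1.00 by the edgeR test), an error too wide to show a difference of either sign.

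**Figure D1:**
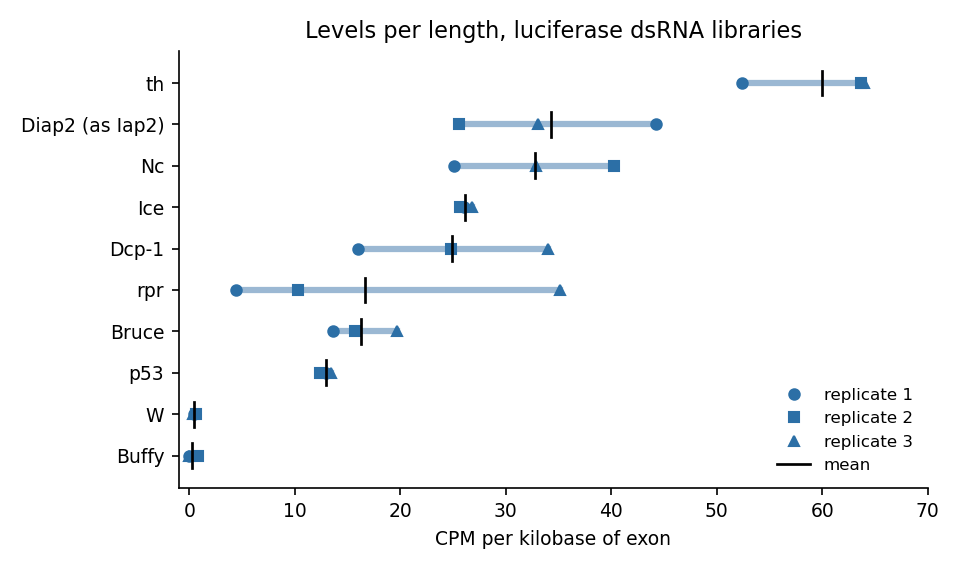
Levels per length of the apoptosis transcripts in the 3 luciferase dsRNA libraries, in CPM per kilobase of exon (linear axis), with a point for each replicate, a bar over the range and a black line at the mean. The inhibitor th lies at 52.4 to 64.0, clear of all others, W and Buffy lie near 0, and rpr has the widest range, 4.44 to 35.1.

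Among the antagonists of th found in the count table, rpr had the most counts. The reaper family gene skl was not found there. W, grim (another antagonist of th) and rpr lie in a cluster on chromosome 3L between positions 18167745 and 18398435 in BDGP6, all on the minus strand, within 231 kb. Over the 6 libraries rpr had 160 counts, W 33 and grim 4. The level of rpr per length was above that of W in each of the 6 libraries.

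The first comparison asked whether knockdown of Imp changed these transcripts. None of the 7 genes tested passed the adjusted threshold of 0.05 in edgeR, where 0% of the 6526 genes tested did. At an unadjusted p under 0.05 the test found 0 of the 7 and 188 of all genes, or 2.88%, while limma-voom called 0 genes at the adjusted threshold and DESeq2 called 1, which was Imp. Of the 7 genes, 1 had a positive and 6 a negative log2 fold change, beside 3162 and 3364 of the 6526 genes tested. The median of the 7 was -0.11, with a range from -0.47 to 0.17, beside a median of -0.0067 over all genes tested. In bulk RNA a lower level can stand for fewer cells of a type or for less RNA per cell, and these cannot be told apart. The fit treats replicates as pairs and leaves 2 residual degrees of freedom.

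The inhibitors overlapped between treatments. In imp dsRNA replicates 1, 2 and 3, th had 173, 174 and 144 CPM, and in the luciferase dsRNA libraries it had 165, 200 and 201. The control value of replicate 1 lay below 2 of the knockdown values, and th was lower after imp dsRNA in 2 of the 3 pairs. Its log2 fold change was -0.20 (SE 0.16, adjusted p = 0.999 by the edgeR test). Bruce had 206, 272 and 233 CPM with imp dsRNA and 213, 247 and 309 with luciferase dsRNA, again with overlap, and a log2 fold change of -0.11 (SE 0.16). Diap2 had 72.5, 51.5 and 86.3 CPM with imp dsRNA and 94.5, 54.6 and 70.6 with luciferase dsRNA. Its 2 lowest values were both from replicate 2, and its log2 fold change was -0.077 (SE 0.19).

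Among the caspases, Nc had 62.4, 81.3 and 50.2 CPM in imp dsRNA replicates 1, 2 and 3 and 50.5, 81.2 and 66.2 after luciferase dsRNA. Its highest value in each treatment came from replicate 2, and the log2 fold change was -0.0074 (SE 0.19), with a sign that turned to 0.011 when DESeq2 size factors replaced TMM. Ice varied little after luciferase dsRNA, with 50.1, 49.4 and 51.6 CPM, and had 51.0, 50.6 and 70.6 after imp dsRNA. It was higher after imp dsRNA in all 3 pairs, as were 11.3% of all genes tested, but its groups overlapped and 2 of these differences were small, at 0.025 and 0.033 on the log2 scale, and the third, of replicate 3, was 0.45. Dcp-1 had 33.0, 45.2 and 38.4 CPM with imp dsRNA and 28.0, 43.4 and 59.4 with luciferase dsRNA, and its groups overlapped. The log2 fold changes of Ice and Dcp-1 were 0.17 (SE 0.18) and -0.095 (SE 0.21).

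The transcription factor p53, which in flies drives rpr and other death genes after DNA damage, was the single gene of the 7 whose groups did not overlap. It had 22.4, 19.9 and 16.5 CPM in imp dsRNA replicates 1, 2 and 3 and 27.6, 26.5 and 28.7 in the luciferase dsRNA libraries. Every knockdown value lay below every control value. Over all genes tested, 3.39% lay lower after imp dsRNA without overlap, 2.8% lay higher and 6.19% did either, while 12.2% were lower in all 3 pairs with or without overlap, so that 1 gene of 7 is a small count to set against this background. The means were 19.6 ± 2.95 CPM (SD, n = 3) for the knockdown and 27.6 ± 1.10 (SD, n = 3) for the control. The log2 fold change was -0.47 (SE 0.23), with an unadjusted p of 0.0574 and 0.999 as the adjusted p in edgeR. The fold change stayed negative in each alternative run, from -0.61 to -0.34. The difference did not pass, and the counts behind it were modest, with 167 counts after imp dsRNA and 201 after luciferase dsRNA. Of the 167, 124 came from imp dsRNA replicate 1, and replicates 2 and 3 had 22 and 21. Their 95% counting intervals, 12.5 to 30.1 and 10.2 to 25.2 CPM, overlapped those of the controls, which started at 21.8, 20.5 and 21.9 CPM.

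**Figure D2:**
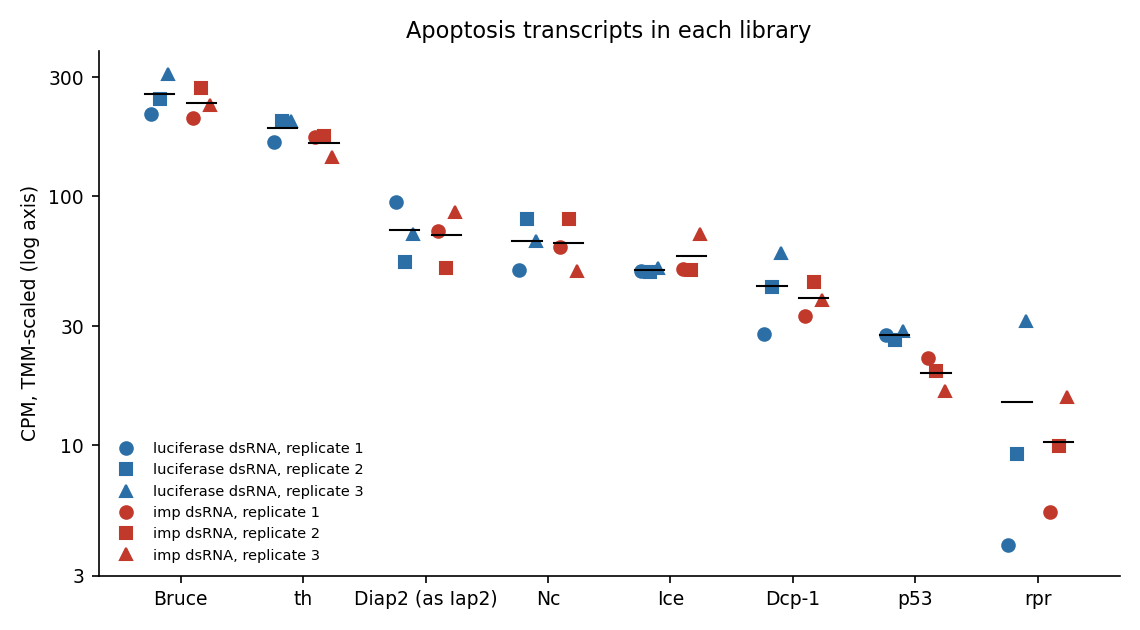
CPM after TMM scaling (log axis) of the 7 genes tested and of Diap2, with a point for each library, the luciferase dsRNA libraries left and the imp dsRNA libraries right within a gene, and a black line at the mean of each treatment. The p53 groups do not overlap (16.5 to 22.4 against 26.5 to 28.7), and the values of rpr are spread most, from 4.00 to 31.6.

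The 3 pairs did not show the same picture. In the pair of replicate 1, 2 of the 7 genes were lower after imp dsRNA, and in that of replicate 2 also 2. In the pair of replicate 3, 6 of the 7 were lower, with Ice the exception, and the median difference was -0.48 on the log2 scale, from -0.97 for rpr to 0.45 for Ice. The median over all genes tested was -0.015 in that pair, and 51.2% of them were lower. Imp differed least in that pair, at -0.84 on the log2 scale against -1.50 and -1.18 in the pairs of replicates 1 and 2. Without replicate 3 the log2 fold changes of Bruce, Nc, Dcp-1 and rpr turned positive, at 0.041, 0.17, 0.16 and 0.28, and none of the 7 passed.

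Ratios within a library do not depend on scaling between libraries. The log2 ratio of th counts to Nc counts was 1.36 ± 0.228 (SD, n = 3) for the knockdown and 1.54 ± 0.209 (SD, n = 3) for the control, and was lower after imp dsRNA in all 3 pairs, by less than the SD in 2 of them (-0.23, -0.20 and -0.087 in replicates 1, 2 and 3). The log2 ratio of th to Ice was lowest in imp dsRNA replicate 3, at 1.02 against 1.71 to 2.02 in the other 5. The ratio of th to its antagonist rpr ran from 2.67 in luciferase dsRNA replicate 3 to 5.36 in luciferase dsRNA replicate 1. The span was larger between the replicates of a treatment than between the treatments, whose means were 4.11 ± 0.903 (SD, n = 3) for the knockdown and 4.16 ± 1.37 (SD, n = 3) for the control.

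The second comparison asked how far the same transcripts differed between experiment days, that is, between replicate numbers with the treatment as a covariate. Of the 7 genes 1, rpr, passed the adjusted threshold by edgeR's quasi-likelihood F test, against 3.17% of the 6526 genes tested. The rpr transcript (FBgn0011706), which encodes a short protein that binds th and frees caspases, comes from a single exon on chromosome 3L from 18397535 to 18398435 in BDGP6, with no overlapping gene on its strand. It had 30, 11 and 20 counts in imp dsRNA replicates 1, 2 and 3, or 5.41, 9.93 and 15.7 CPM, and 11, 23 and 65 counts in the luciferase dsRNA libraries, or 4.00, 9.24 and 31.6 CPM. In both treatments the lowest value was that of replicate 1 and the highest that of replicate 3, and the values of replicate 2 from the different treatments were close to each other.

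The mean of the 2 libraries was 4.70 CPM for replicate 1, 9.59 for replicate 2 and 23.7 for replicate 3. Replicate 3 stood 2.25 above replicate 1 and 1.37 above replicate 2 on the log2 scale of the fit, and the difference between days gave an adjusted p of 0.0131 in the edgeR F test. Between treatments rpr had a log2 fold change of -0.29 (SE 0.34, adjusted p = 0.999 by the edgeR test). In the pairs it was 0.36, 0.094 and -0.97 on the log2(CPM + 1) scale. Both replicate 3 libraries exceeded the other 4, as they did in 9.41% of the genes tested.

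The call between days rests on the pairs at the ends of the range. Without replicate 1 the adjusted p of rpr was 0.138, without replicate 3 it was 0.0857, and without replicate 2 it was 1.13e-05, all by the edgeR F test. The fit without replicate 2 called 281 of 6618 genes between days. Leaving out a single library, an alternative chosen after seeing the data, keeps only 1 library for that day. Calls between days from such fits are not given. The 95% counting interval of luciferase dsRNA replicate 3, 24.4 to 40.3 CPM, did not reach that of imp dsRNA replicate 3, 9.58 to 24.2 CPM. Such intervals cover counting error only.

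The hemocyte marker Sr-CI differed between days, in the same order of days as rpr. Sr-CI, a scavenger receptor of hemocytes, had 4.15, 21.7 and 112 CPM in imp dsRNA replicates 1, 2 and 3 and 1.82, 8.44 and 58.4 after luciferase dsRNA, with an adjusted p of 3.28e-06 by the edgeR F test. It was 1 of 7 hemocyte markers tested to pass. The means of Pxn ran the other way, at 121, 71.7 and 65.7 CPM for replicates 1, 2 and 3, and that of Hml was lowest in replicate 3. Those of srp and He were highest in replicate 2, and those of Cg25C and vkg were lowest there. The summed level of the 8 markers, most of it from Cg25C and vkg, was 5406, 5895 and 8964 CPM in imp dsRNA replicates 1, 2 and 3. After luciferase dsRNA it was 5145, 4166 and 4470 CPM, an order that rpr did not follow. The summed level of the 7 markers of other cell types without elav was 4.69, 8.13 and 9.41 CPM in imp dsRNA replicates 1, 2 and 3. After luciferase dsRNA it was 2.54, 4.42 and 5.84 CPM. In both treatments it was also lowest in replicate 1 and highest in replicate 3. Each of these 7 genes had at most 27 counts over the 6 libraries, and the counting error of the sums was not assessed. The part of these markers in the difference of rpr was not tested.

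**Figure D3:**
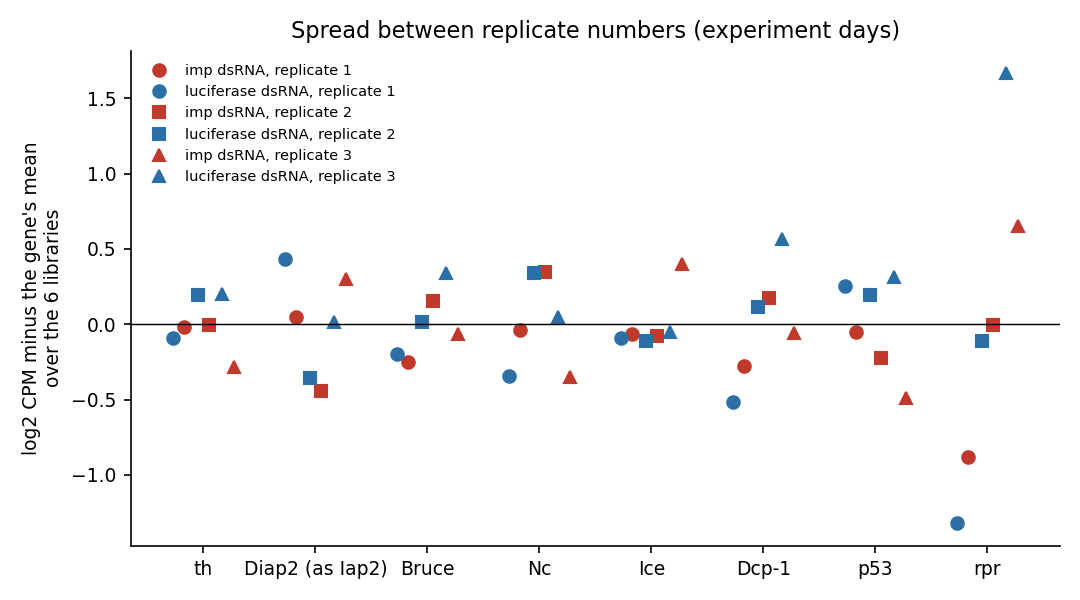
Log2 CPM of each library minus the mean of the gene over the 6 libraries, for the 7 genes tested and Diap2, with symbols for the replicate number and colours for the treatment. The libraries of rpr split by replicate number in both treatments, with means of 4.70, 9.59 and 23.7 CPM for replicates 1, 2 and 3, while those of th do not, with means of 169, 187 and 172 CPM.

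The other genes differed less between days. Dcp-1 was lowest in replicate 1 of both treatments, with means of 30.5, 44.3 and 48.9 CPM for replicates 1, 2 and 3 and an adjusted p of 0.346 by the edgeR F test. Nc had means of 56.4, 81.2 and 58.2 CPM (adjusted p = 0.403 by the same edgeR F test) and Diap2 83.5, 53.1 and 78.4 CPM (adjusted p = 0.301 by the same edgeR F test), the one highest and the other lowest in replicate 2 of both treatments. Without the replicate 3 pair, Nc and Diap2 passed between the remaining days, with adjusted p-values of 0.0357 and 0.00918 by the edgeR F test, while rpr did not. That fit called 863 of 6609 genes between days, against 207 of 6526 with all libraries. The inhibitor th, at 169, 187 and 172 CPM, and p53, at 25.0, 23.2 and 22.6 CPM, had adjusted p-values of 0.894 and 0.923 by the edgeR F test and passed under none of the alternatives run.

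Other genes of the apoptosis pathway were taken from a list of 30, of which 26 were in the count table and 20 had enough counts to be tested. None passed between treatments, where 11 had a positive and 9 a negative log2 fold change, with a median of 0.043 and a range from -0.41 to 0.34. By edgeR at an unadjusted p under 0.05 there were also 0 of the 20, and limma-voom and DESeq2 called 0 of the list. The gene at the lower end, lok, encodes the checkpoint kinase that acts on p53 after DNA damage. It had 33.4, 28.9 and 25.9 CPM in imp dsRNA replicates 1, 2 and 3 and 39.2, 36.2 and 43.8 after luciferase dsRNA, without overlap, and its log2 fold change was -0.41 (SE 0.21, adjusted p = 0.999 by the edgeR test). Of the 20, lok and the mitochondrial protease gene HtrA2 did not overlap between treatments, both lower after imp dsRNA, beside 6.19% of all genes tested. HtrA2 was near the low end, with 50 counts after imp dsRNA and 60 after luciferase dsRNA. Its ranges, 6.28 to 6.32 and 6.83 to 9.74 CPM, lay close together. Like p53, lok thus had its 3 values after imp dsRNA below its 3 values after luciferase dsRNA, and neither difference passed the adjusted threshold. The other tested genes listed with lok for a p53 axis were tefu, mei-41 and Xrp1. Their groups overlapped, with log2 fold changes of -0.052, 0.23 and -0.088. The genes lok, HtrA2, tefu, mei-41 and Xrp1 are named after their values were seen.

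Of the scaffold and the remaining caspases, Dark, the platform on which Nc is activated, had 23.3 to 44.2 CPM over the 6 libraries with a log2 fold change of 0.088 (SE 0.25). Strica, an initiator-like caspase, had 84.7 to 161 CPM, and Dredd, the caspase of the Imd pathway, had 12.7 to 25.1 CPM. Damm, another caspase, had 6 counts in all. Of the Bcl-2 family, debcl had 898 counts over the 6 libraries against 5 for Buffy. Between days 0 of the 20 passed the adjusted threshold and 5 had an unadjusted p under 0.05, beside 14.6% of all genes tested. The smallest adjusted p between days was that of egr, the death ligand of the tumour necrosis factor family, at 0.0825 by the edgeR F test, with 278, 199 and 178 CPM in imp dsRNA replicates 1, 2 and 3 and 270, 191 and 141 after luciferase dsRNA. In both treatments egr was highest in replicate 1 and lowest in replicate 3, the reverse of the order of rpr.

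**Figure D4:**
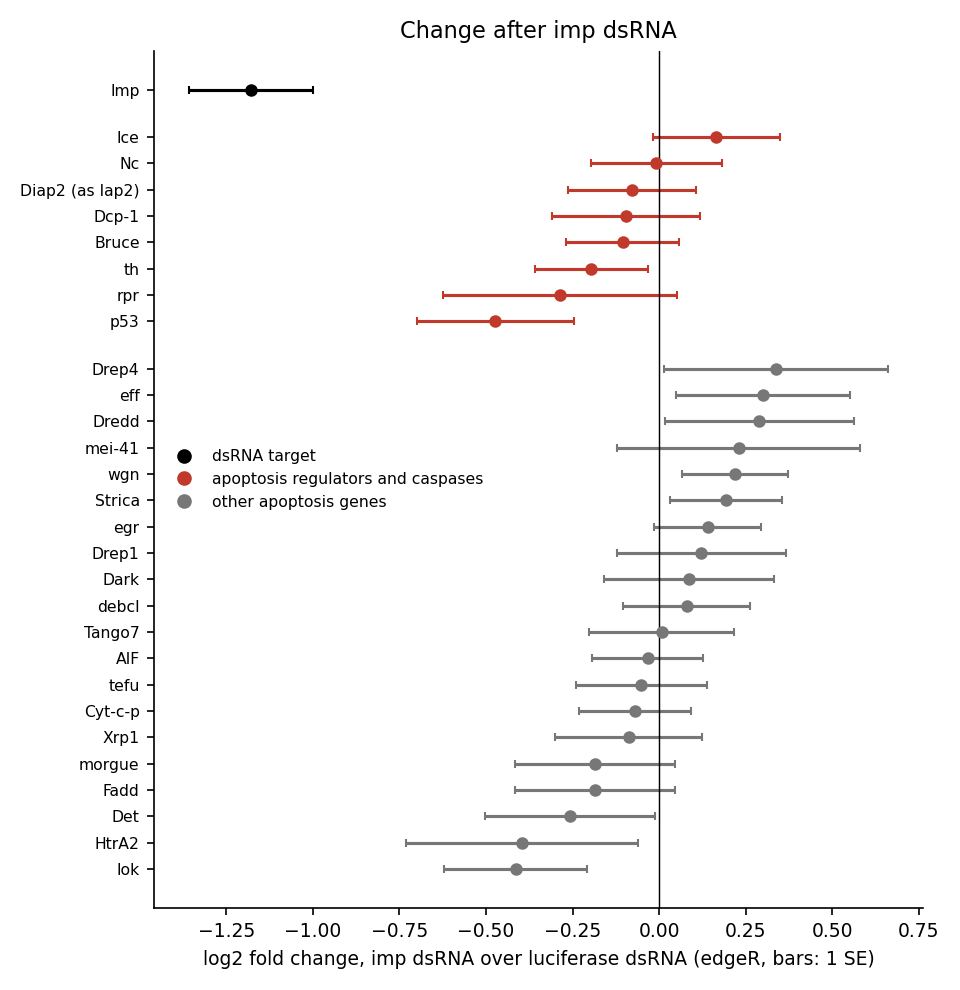
Log2 fold change of imp dsRNA over luciferase dsRNA by edgeR with bars of 1 SE, for Imp (black), the 7 genes tested and Diap2 (red) and the 20 tested genes of the wider apoptosis list (grey). Imp lies at -1.18, p53 at -0.47 and Ice at 0.17, and none of the genes shown passed the adjusted threshold.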

How the data were processed

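Poly(A) RNA of S2 cells was sequenced in 3 libraries per treatment. BWA-PSSM served the authors for mapping to the combined dm3 and yeast genomes (yeast RNA was a spike-in), and reads of high mapping confidence were counted where just 1 gene overlapped them in sense. These raw counts are what the authors deposited per gene. Collapsing of the random barcodes is not given for these libraries in the sources used here, and tool versions of the mapping are not given either. A second table that the authors deposited is their DESeq output and holds mean normalized signal, fold change (a ratio), log2 ratios and p-values. Only the identifiers and symbols of that table were used. iCLIP, PAR-iCLIP, RIP-seq and input libraries were not analysed here. The row that names no gene held 0 counts, 0% of the total, and was left out.

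Of 9977 genes, 6526 passed filterByExpr and were fitted in R 4.3.3 with edgeR 4.0.16 (TMM scaling, quasi-likelihood test, replicate number as a block, Benjamini-Hochberg adjustment over all genes tested, threshold 0.05). The fitting code was checked on simulated counts with set changes and a set dispersion, which does not measure its power in these libraries. The supplement of the study states that triplicates were made on different days and that its dispersion method takes replicates as paired. That a shared number marks a shared day was inferred, and deviations from the group means of same-numbered libraries correlated at 0.30 to 0.48. No replicate repeated another within sampling noise (chi-square per degree of freedom 6.38 to 27.6). SEs were obtained as the size of the log2 fold change over the root of F, and pair differences used a pseudocount of 1 CPM. Intervals of single counts are exact Poisson intervals at 95%. Positions, exon and coding lengths and overlaps came from the BDGP6 annotation, a later build than dm3, in which 9546 of the gene identifiers were found. Bruce was found there by symbol only. DESeq2 1.42.0, limma 3.58.1, other filters and scaling, and each replicate left out were the alternatives. The rule for the genes uses names alone, but it, the lists and the tests were set with earlier results of these data known. The rule for named genes takes the 10 symbols, Imp, and of the wider list those that passed a threshold, while the others named from that list were chosen after their values were seen. Markers of hemocytes were srp, Hml, Pxn, NimC1, He, Sr-CI, Cg25C and vkg.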

Additional observations from a re-analysis of the deposited data

How the results depend on the processing

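The 7 tested genes had 0 calls between treatments under each alternative run, and th, p53 and Ice kept the sign of their log2 fold change throughout. Over all genes, the count of 0 between treatments (edgeR, 188 genes at an unadjusted p under 0.05) became 4 with no filter and 1 in blocked DESeq2. It was 0 to 58 when a replicate was left out, 58 being without replicate 3, and 0 to 59 when a single library was, 59 being without either library of replicate 3. Imp itself passed with no filter, in DESeq2 and without replicate 3 (log2 fold change -1.35). The sign of Nc turned with DESeq2 size factors (0.011) and by limma-voom (0.0071). With replicates or single libraries left out, log2 fold changes ran from -0.35 to -0.051 for th, 0.030 to 0.25 for Ice, -0.61 to -0.34 for p53, -0.23 to 0.041 for Bruce, -0.19 to 0.17 for Nc, -0.30 to 0.16 for Dcp-1, -0.61 to 0.28 for rpr and -0.27 to 0.12 for Diap2. Leaving out 1 library of a pair removes that pair from the treatment comparison. An edgeR fit with no replicate block called 0 genes of all and 0 of the 7 (72 genes at an unadjusted p under 0.05), and the log2 fold changes of p53 and rpr were -0.47 and -0.63, and the block changed no other call in the edgeR fits. Between days, the count of 1 of the 7 genes was 0 to 1 over fits without 1 replicate, where the 1 without replicate 3 was Nc and not rpr, and 1 to 2 with single libraries left out (Dcp-1 and rpr without imp dsRNA replicate 3, Nc and rpr without luciferase dsRNA replicate 3). Over all genes the 207 calls between days became 512 with no filter and ran from 73 to 863 with replicates left out and up to 1333 with single libraries left out. Of the wider list, 0 became 3 with no filter (Drep1, debcl and egr), beside 512 of 9596 genes. With replicates left out it ran from 0 to 6, the 6 being without replicate 3, beside 863 of 6609 genes. The cause was not tested. The order of levels per length kept 31 of 36 gene pairs with the coding length and 34 to 36 with each replicate left out. With 1081882 counts in the shallowest library, differences of W and Buffy were not detectable at this depth.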

Other observations

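Likeness of pattern was described over the 6 libraries, which share the same days and depths. The genes whose log2 CPM followed th most closely were Gcn2 (Pearson r = 0.988), CG3925 (0.986) and Caf1 (0.982), the highest of 6525 genes compared. Among the 6 genes of the group with at least 20 counts in every library, the closest pair was Bruce and Dcp-1 (r = 0.948), both lowest in replicate 1 and highest in luciferase dsRNA replicate 3. The most opposed pair was Ice and p53 (r = -0.76), followed by th and Ice (-0.76), and in both the library that departed most was imp dsRNA replicate 3, where Ice was highest and th and p53 were lowest.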
